A study of Mus musculus with 13 samples.

Results

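Heat shock proteins are chaperones that bind unfolded or newly made proteins and help them reach their folded state. In the cytosol, Hsp70 proteins take up unfolded chains with the help of J-domain proteins, Hsp110 proteins release the nucleotide from Hsp70 so that it can start again, and Hsp90 finishes the folding of kinases, receptors and other clients. In mitochondria an Hsp70 pulls proteins in through the inner membrane and the Hsp60 and Hsp10 chaperonin folds them in a closed chamber. B cells that leave rest grow in mass before they divide, and their need for protein folding grows with protein synthesis. Described here are 10 genes of this system, picked by symbol, with earlier results of these data known, of 37991 genes in the table: Hsp90aa1 and Hsp90ab1 (cytosolic Hsp90), Hspa8 and Hspa1b (cytosolic Hsp70), Hspa4 and Hsph1 (Hsp110), Dnaja1 (a J-domain cochaperone), Hspa9 (mitochondrial Hsp70), Hspd1 (Hsp60) and Hspe1 (Hsp10). All 10 were found by Ensembl identifier, and 9 of them were on, as defined further down, in at least 1 of the 9 cells compared.

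The comparison asked which genes differ between stimulated B cells that had grown and those that had not. Naive B cells were purified with magnetic beads from spleens of wild type C57BL/6 mice aged 6-8 weeks and stimulated in culture for 24 h with CpG ODN 1668, a DNA ligand of TLR9, at 250 nM according to the sample labels and 250 ng/ml according to the protocol text. A chip with microscopic wells trapped single live cells, whose size was read from images before lysis and amplification. Of the 13 libraries sequenced, 10 came from single cells. The 5 small cells are named by their wells A2, C12, C7, F7, H1, and the 5 large cells by C1, C3, E1, E3, G2. The other 3 were a negative control with spike-in RNA and no cell, diluted bulk material at 24 h, and a bulk sample at 0 h labelled as unstimulated, although its labels list CpG as well. No mouse or culture is named for any cell, so each size group is 1 sample, cells are not replicates, and no difference given here has a replicate check or a p-value.

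Gene counts per library were 3311235 to 6311782 in the 9 cells and 1740862 in the 24 h bulk library. Large cell C3 was left out of the comparisons, as in the study's methods. It had 0 counts of the B cell receptor gene Cd79a, which had 3570 to 21859 counts in the other 9 cells. Counts of the class II gene H2-Ab1 were 0 as well, beside 2925 to 29263 in the others. Some B cell markers were present in C3, with 2499 counts of Cd74 and 731 of Cd79b. Its 11 B cell markers summed to 785 CPM (counts per 1000000 gene counts), where the other 9 cells had 4930 to 34505. Markers of T cells, NK cells, dendritic cells and erythroid cells each summed to at most 107 CPM in any cell. Plasma cell markers reached 1931 CPM in C12, and myeloid markers reached 1890 CPM in G2. In the 24 h bulk, T cell markers summed to 351 CPM, NK cell markers to 212 and myeloid markers to 724. Dendritic and erythroid markers were at 0 there, and B cell markers summed to 5795 CPM. The part of other cell types in the bulk values was not tested. The negative control had 3 counts of the 10 genes. The 0 h library did not resemble the others. Its counts followed gene length (Spearman rho = 0.86 across 32919 genes, against 0.23 in the 24 h bulk), 31.6% of them fell on the pair Gm10800 and Gm10801, and the muscle gene Ttn had 694 counts beside 22 for Actb. The 10 heat shock genes had 1 to 40 counts each there.

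Heat shock factors bind inverted repeats of the letters GAA, so the RefSeq windows from 250 bases before to 50 bases after each start site (build GRCm38.p6) were searched for GAANNTTC and TTCNNGAA, each of which reads the same on both strands and may overlap the other. The table gave 10 windows for 6 of the members, and Hsp90aa1, Hsp90ab1, Hspa8 and Hspa9 were not searched. Of the 10 windows 6 held at least 1 match, beside 15.1% of 32851 windows of all genes. The 6 are not separate regions: the 2 windows of Hsph1 overlap and hold the same matches, and those of Hspe1 and Hspd1 overlap as well. The windows without one were that of Hspa4, 1 of the 2 of Hspd1 and 2 of the 3 of Dnaja1. Stretches of 60 bases around the first match are shown so that the arrangement of the matches can be compared, with their fixed letters in capitals. For Hsph1 only the first of 3 matches lies in the stretch, and the others, which overlap each other, lie downstream of it.
Hspe1, chr1:55088033-55088092, plus strand: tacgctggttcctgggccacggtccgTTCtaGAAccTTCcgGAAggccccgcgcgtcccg
Hsph1, chr5:149636336-149636395, minus strand: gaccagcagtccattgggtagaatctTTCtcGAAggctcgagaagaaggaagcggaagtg
Dnaja1, chr4:40722318-40722377, plus strand: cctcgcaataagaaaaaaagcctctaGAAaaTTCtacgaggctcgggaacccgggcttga
Hspa1b, chr17:34959309-34959368, minus strand: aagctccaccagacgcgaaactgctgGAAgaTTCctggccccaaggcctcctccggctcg

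Hspe1 and Hspd1 lie head to head on chromosome 1, and a window of one shares 285 of 300 bases with a window of the other. The run of 3 overlapping matches shown for Hspe1 therefore also lies in the Hspd1 window, read from the other strand. Windows with 3 or more matches made up 0.256% of all windows, and those of Hspe1 and Hsph1 and 1 of Hspd1 were among them. Hspa1b and a window of Dnaja1 had 1 match each. The Hspa1b stretch is identical in Hspa1a, and the full windows of these copies agree at 296 of 300 bases. A match is a description of the sequence and not a measured binding site.

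Together the 10 genes took 0.185% to 2.00% of the gene counts of a cell. In small cells their share was 0.751% in A2, 0.707% in C12, 0.565% in C7, 1.92% in F7 and 0.921% in H1. In large cells it was 1.46% in C1, 2.00% in E1 and 1.23% in E3, with 0.185% in G2. Thus 3 of the 4 large cells lay above 4 of the 5 small cells, while G2 lay below every small cell and F7 lay next to E1. The medians were 1.35% in large and 0.751% in small cells, a difference of 0.594 percentage points (0.479 to 0.708 when each cell was left out in turn). The exact 95% binomial intervals were narrow, for example 0.181% to 0.189% in G2 and 1.90% to 1.93% in F7, but they and all intervals below speak for counting error alone, because amplified copies could not be told from separate molecules. The 24 h bulk library gave 1.83%, close to the highest cells, and the omitted cell C3 gave 0.0772%.

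**Figure D1:**
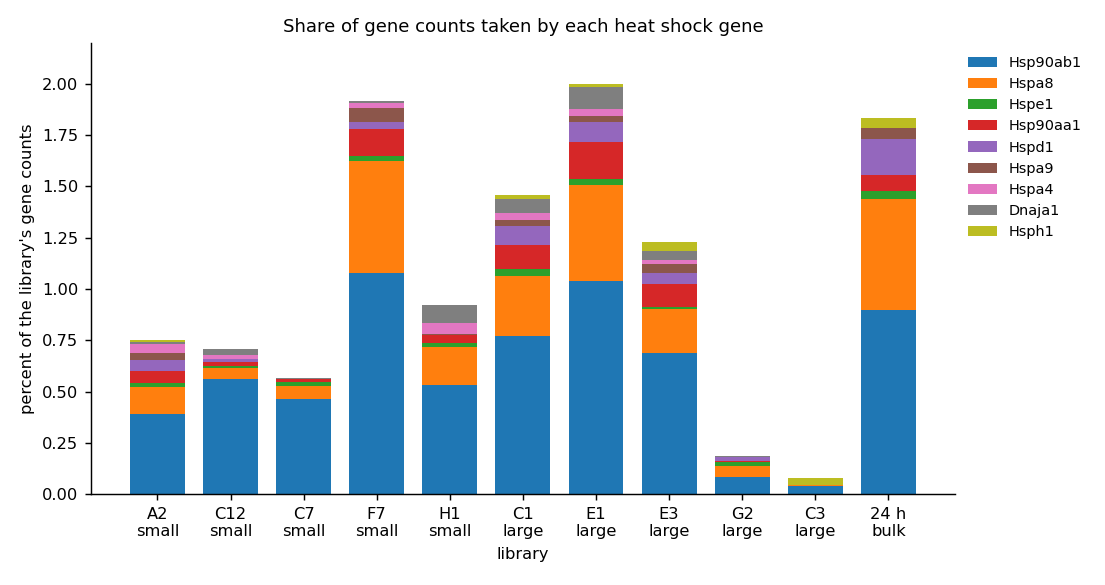
Stacked bars give the percent of each library's gene counts that fell on each of 9 heat shock genes (Hspa1b had no count in these libraries), with small cells at the left, then large cells, the omitted large cell C3 and the 24 h bulk. Hsp90ab1 and Hspa8 make up 60.3% of the bar of C3 and 69.3% to 93.0% of those of the other cells, and the total runs from 0.0772% in C3 to 2.00% in E1.

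Levels per length, as median CPM per kilobase of exon over the 9 cells, ran from Hsp90ab1 (1869) through Hspa8 (436), Hspe1 (160), Hsp90aa1 (148), Hspd1 (134), Hspa9 (64.4), Hspa4 (40.7) and Dnaja1 (31.9) to Hsph1 (1.03). Lengths are those of all annotated exons of a gene joined, such as 8629 bases for Dnaja1, 7266 for Hsph1 and 1474 for Hspe1. The order depends on these lengths, which may exceed those of the transcripts present. Hsp90ab1 was above Hspa8 in 9 of 9 cells, and Hspa8 was above Hspe1 in 8. The order of the next members did not hold from cell to cell: Hspe1 was above Hsp90aa1 in 4 of 9 cells, Hsp90aa1 above Hspd1 in 5, Hspa9 above Hspa4 in 4 and Hspa4 above Dnaja1 in 3. Hsp90ab1 and Hspa8 together made up 69.3% to 93.0% of the members' counts in a cell.

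Of the 81 counts of 9 detected members in 9 cells, 7 were 0, 6 were between 12 and 42, and 68 were between 177 and 66828. The 13 values of 42 or less fell in 5 cells: 5 in C7, 4 in G2, 2 in C12, and 1 each in F7 and H1. No member was low in A2, C1, E1 or E3. C7 had the fewest gene counts (3311235) and the fewest genes with a count (4113) of the 9 cells, and G2 had the next fewest genes (4430) at 5588852 gene counts, the median of the 9 cells. Their part in the members' low values was not tested.

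**Figure D2:**
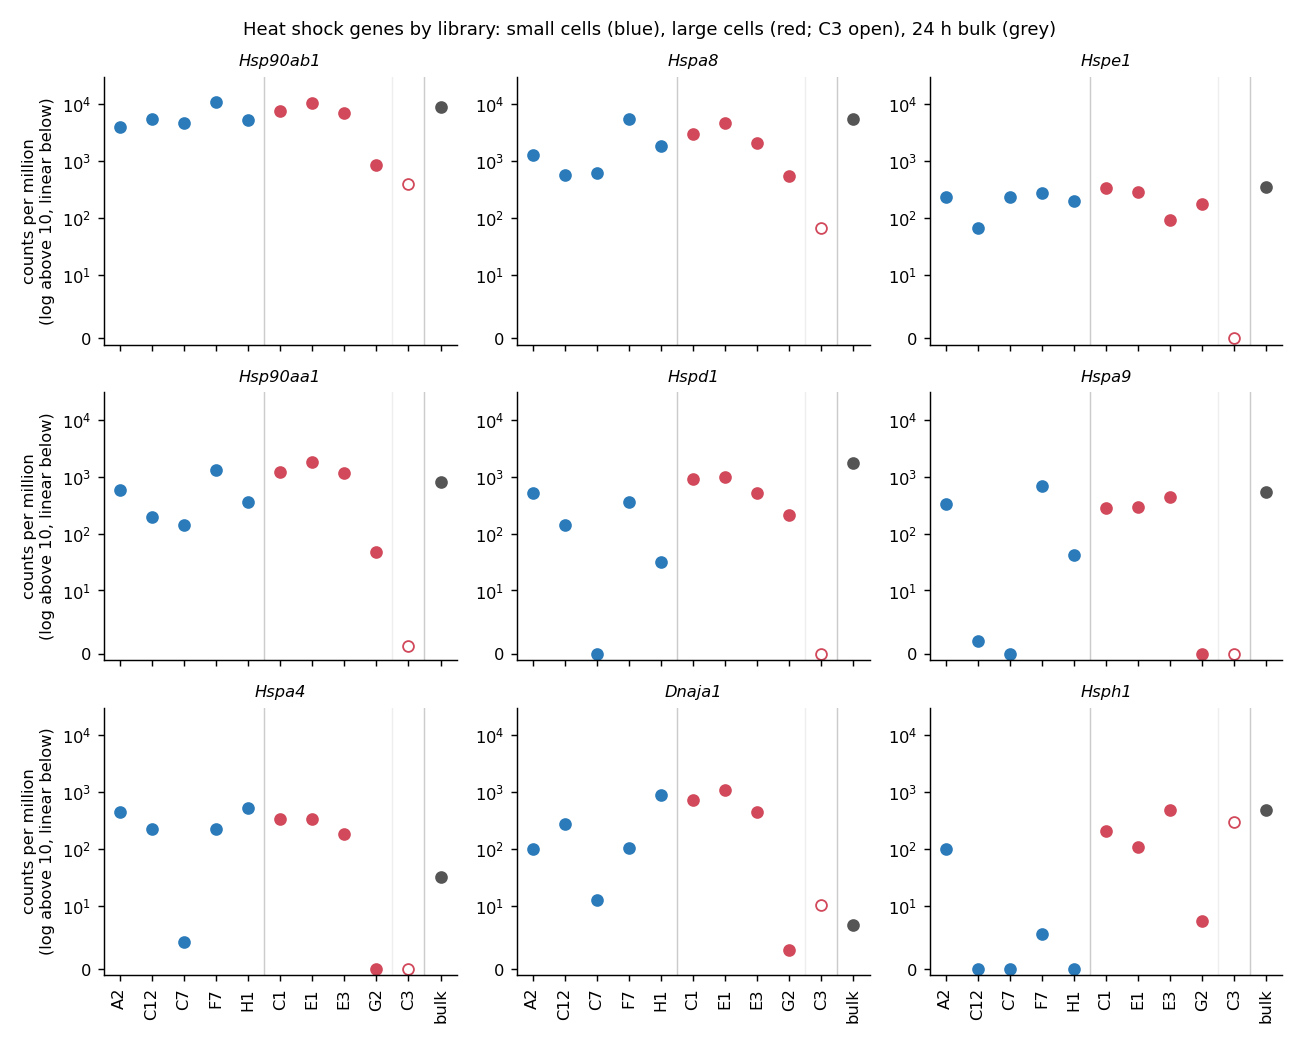
Each panel shows 1 gene, with CPM on the vertical axis (logarithmic above 10, linear below) and 1 point per library: small cells in blue, large cells in red, C3 as an open circle and the 24 h bulk in grey. Hsp90ab1 and Hspa8 lie at 551 or more in all 9 cells used, whereas Hspa9, Hspa4, Dnaja1 and Hsph1 have points at or near 0.

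Levels were compared between sizes on the scale of the study. The adjusted count of a gene was its count times the factor that the authors derived from spike-in RNA, plus 100. A gene counted as on where this value exceeded 300, and its score was the share of the 4 large cells minus the share of the 5 small cells in which it was on. A score of at least 0.5 was called higher in large cells and one of at most -0.5 lower. By this rule 1 of the 9 detected members, Hsph1, was called higher and none was called lower, where 5.83% and 1.88% of the 6435 genes on in any of the 9 cells were called. Hsp90ab1 and Hspa8 were on in all 9 cells, as were 2.72% of the detected genes. The log2 ratio of mean adjusted counts, large over small, had a median of 0.70 over the 9 members and of 0.02 over all detected genes. It was above 0 for 8 of the 9 members, as for 50.7% of all detected genes. For each of the 9 members the adjusted counts of the size groups overlapped, as for 99.5% of all detected genes.

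**Figure D3:**
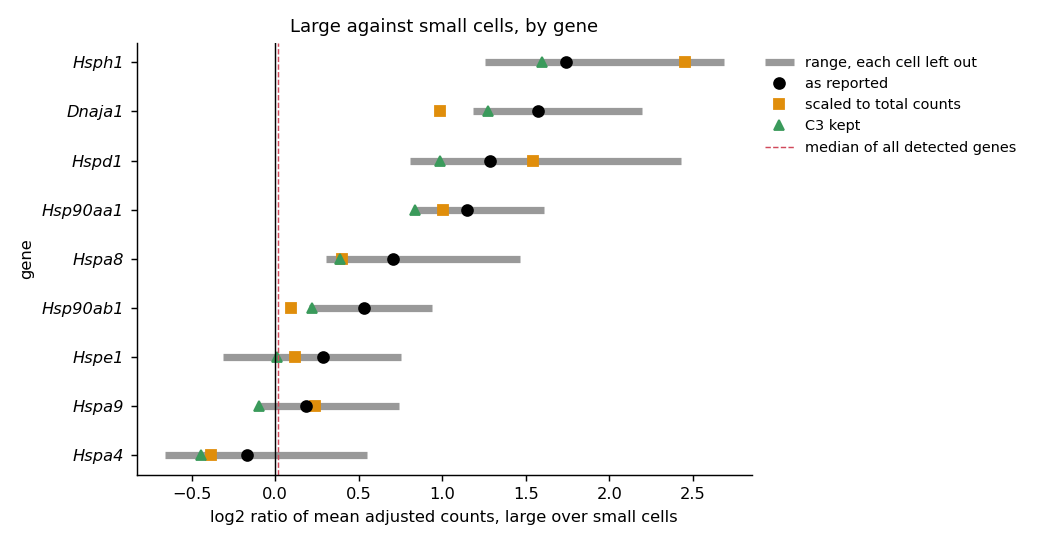
Black points give the log2 ratio of mean adjusted counts in 4 large over 5 small cells for each gene, grey bars the range when each of the 9 cells is left out, orange squares the ratio after scaling to total counts, and green triangles the ratio with C3 kept. The points run from -0.17 for Hspa4 to 1.74 for Hsph1, and the grey bars of Hspa4, Hspa9 and Hspe1 cross 0.

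Hsp90ab1, the constitutive cytosolic Hsp90, lies on chromosome 17 from 45567775 to 45573271 (GRCm38, the build of all gene positions given here and not that of the authors' alignment) and was the most abundant member. It had 3918 CPM in A2, 5604 in C12, 4646 in C7, 10794 in F7 and 5304 in H1. The large cells had 7696 CPM in C1, 10369 in E1 and 6896 in E3, with 847 in G2. G2 was thus lower than every other cell, and F7, a small cell, was the highest. The mean adjusted count was 19370 ± 14126 (SD over cells, n = 4) in large and 13391 ± 8312 (n = 5) in small cells, a log2 ratio of 0.53. After scaling to total counts in place of spike-ins the ratio was 0.09.

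Hsp90aa1, the Hsp90 gene that is induced by heat in many cells, lies on chromosome 12 from 110690605 to 110702728. It was at 582 CPM in A2, 191 in C12, 140 in C7, 1295 in F7 and 352 in H1. It was at 1180 CPM in C1, 1816 in E1 and 1139 in E3, with 48.0 in G2. Apart from G2 and F7, the large cells lay above the small ones. The log2 ratio of adjusted counts was 1.15 (0.83 to 1.61 with each cell left out), with a score of -0.05. These reads could be shared with copies of the gene, since 47.5% of the windows of 50 bases in its transcripts also occur in other genes' transcripts. The leading copy, Gm12346, had 3 to 104 counts in the cells, 1.18% of the counts of Hsp90aa1.

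The balance of the Hsp90 genes within a cell does not depend on how libraries are scaled. Hsp90aa1 made up 12.9% of the counts of both genes in A2, 3.30% in C12, 2.93% in C7, 10.7% in F7 and 6.22% in H1. It made up 13.3% in C1, 14.9% in E1 and 14.2% in E3, with 5.36% in G2. C1, E1 and E3 lay above all 5 small cells, and G2 lay below 3 of them. The interval of C1 met that of A2 (12.9% to 13.6% against 12.5% to 13.4%, exact 95% binomial intervals). The 24 h bulk stood at 8.36%, inside the range of the cells. The share differed between cells by far more than counting error, at 2.68% to 3.21% in C7 and 14.7% to 15.2% in E1.

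**Figure D4:**
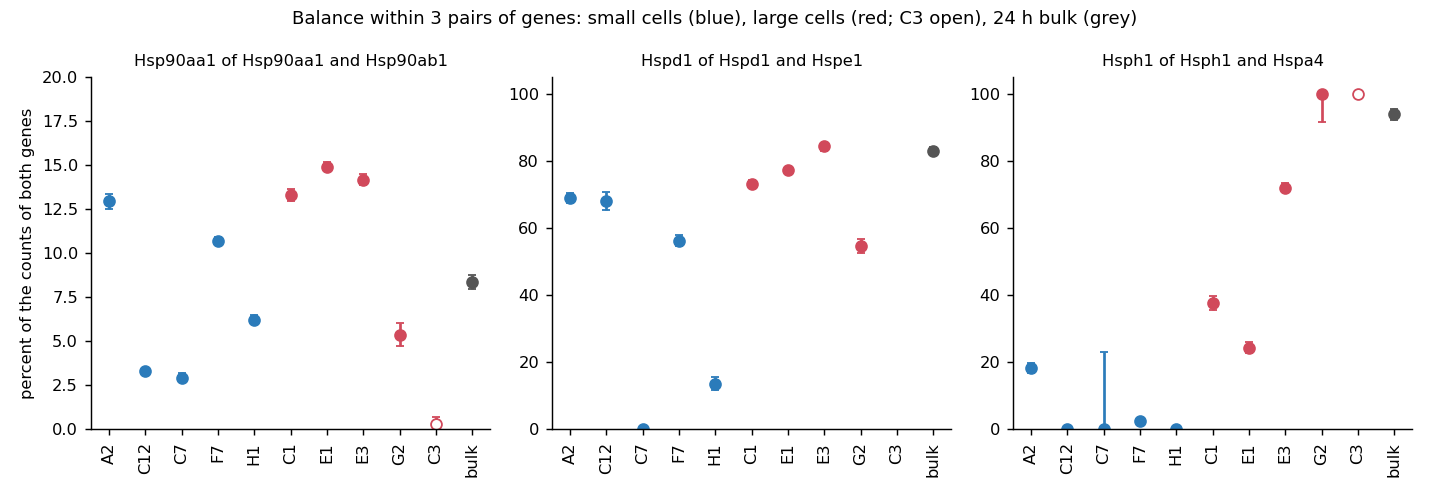
Points give the percent of the counts of both genes of a pair that fell on the first one named, by library, with exact 95% binomial intervals for counting error, and the vertical axis of the left panel has a smaller range. Hsp90aa1 stands at 13.3% to 14.9% in C1, E1 and E3, Hspd1 at 0% in C7 and 84.3% in E3, and Hsph1 at 18.2% or less in small cells and 24.4% or more in large ones.

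Hspa8, the constitutive cytosolic Hsp70 also known as Hsc70, lies on chromosome 9 from 40800984 to 40810087. It had 1287 CPM in A2, 566 in C12, 610 in C7, 5426 in F7 and 1877 in H1. The large cells had 2953 CPM in C1, 4712 in E1 and 2131 in E3, with 551 in G2. F7 was the highest and G2 the lowest of all 9, and the size groups overlapped. The log2 ratio was 0.70, and it was 1.46 without F7 and 0.31 without E1. Every cell lay below the 24 h bulk, at 5438 CPM, where Hspa8 ranked 8th among all genes by count, though F7 came close to it. Of the windows of 50 bases in its transcripts, 39.4% also occur in transcripts of 16 other genes, most often of Gm15459.

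Hspa1b, the stress-induced cytosolic Hsp70, lies on chromosome 17 from 34956436 to 34959238 and had 0 counts in all 10 cells and in the 24 h bulk. A count of 0 allows up to 0.475 to 0.906 CPM in the 9 cells and 1.72 CPM in the bulk (3 counts of the total). Its copy Hspa1a had 0 counts in the same libraries. Some reads from these genes may be unassignable, since 62.3% of the windows of 50 bases in Hspa1b also occur in Hspa1a, and the sources used here do not say how such reads were counted. The remaining windows are particular to Hspa1b among annotated transcripts, and no read was counted in them either. In the 0 h library each copy had 7 counts, or 2.50 per kilobase for Hspa1b where the median gene had 5.41.

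Among the Hsp110 genes, which act as nucleotide exchange factors of Hsp70, Hsph1 (on chromosome 5 from 149614287 to 149636376) was the 1 member called by the score. It had 514 counts in A2, 34 in F7 and 0 in C12, C7 and H1. In large cells it had 820 counts in C1, 669 in E1 and 2861 in E3, with 42 in G2. It was therefore on in 3 large cells and 1 small cell (score 0.55), with A2 standing among the large cells and G2 among the small ones. Summed counts were 4392 (exact 95% Poisson interval 4263 to 4524) in large and 548 (503 to 596) in small cells, and mean adjusted counts were 664 ± 509 (SD over cells, n = 4) and 199 ± 214 (n = 5), a log2 ratio of 1.74. The call rests on single cells: the score was 0.47, below the threshold, without C1, without E1 or without E3. C3 was on as well, with 1219 counts, and the score with C3 kept was 0.60. No window of 50 bases in Hsph1 was shared with another gene.

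Hspa4, the other Hsp110 gene among the members, lies on chromosome 11 from 53259814 to 53300457. It had 443 CPM in A2, 225 in C12, 4.23 in C7, 220 in F7 and 527 in H1. It had 336 CPM in C1, 329 in E1 and 185 in E3, with 0 in G2. Apart from C7 and G2, the cells of both sizes lay between 185 and 527 CPM, and the log2 ratio of -0.17 was 0.55 without A2 and 0.20 without G2. In counts of both of these Hsp110 members together, Hsph1 made up 0% to 18.2% in small cells and 24.4% to 100% in large cells, and these ranges did not meet. This was 1 of 3 pairs looked at, the ranges of the other pairs overlapped, and Hsph1 is the gene called by the score. No share over other gene pairs was computed, so nothing is read from it. The 100% of G2 came from 42 counts of Hsph1 and 0 of Hspa4, and the 0% of C7 came from 14 counts of Hspa4, which allow up to 23.2% (exact 95% binomial interval). In the 24 h bulk Hsph1 made up 93.9%, from 847 counts against 55.

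Dnaja1, a J-domain protein that hands substrates to Hsp70, was on in 4 small and 3 large cells, so its score was -0.05, yet its ratio was next to that of Hsph1. It was at 98.9 CPM in A2, 275 in C12, 12.4 in C7, 102 in F7 and 871 in H1. It was at 710 CPM in C1, 1082 in E1 and 437 in E3, with 3.04 in G2. The cell with the most was a large one, but H1 lay above C1 and E3, and G2 had the least. Mean adjusted counts were 1837 ± 1469 (SD over cells, n = 4) in large and 618 ± 522 (n = 5) in small cells, a log2 ratio of 1.57 that was 0.99 after scaling to total counts. With an adjusted count of 600 as the threshold the score was 0.55. The 24 h bulk had 12 counts, or 6.89 CPM, below 8 of the 9 cells, and 0.017 times the mean of the cells. Dnaja1 lies on chromosome 4 from 40722150 to 40737149 and shares 608 exon bases with Smu1 on the opposite strand, and whether reads were counted by strand is not given. G2 had the most Smu1 counts, 6435, and 17 of Dnaja1. The next cells by Smu1, E1 with 3031 and H1 with 2210, had the most Dnaja1, 6827 and 4784 counts. C7 had 0 of Smu1 and 41 of Dnaja1. Over the 9 cells the Smu1 counts came to 66.4% of those of Dnaja1, and their part in the Dnaja1 values was not tested.

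Hspa9, the mitochondrial Hsp70, had 328 CPM in A2, 2.08 in C12, 0 in C7, 679 in F7 and 42.6 in H1. It had 278 CPM in C1, 292 in E1 and 437 in E3, with 0 in G2. F7 was the highest cell, and the gene was on in 2 small and 3 large cells (score 0.35, log2 ratio 0.18). The score reached 0.50 without A2 or without F7 and 0.60 without G2, while the ratio was -0.10 without C12 or without C7.

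Hspd1, the Hsp60 subunit, lies on chromosome 1 from 55077835 to 55088243. It had 524 CPM in A2, 143 in C12, 0 in C7, 355 in F7 and 32.2 in H1. It had 905 CPM in C1, 979 in E1 and 507 in E3, with 215 in G2. G2, low for most members, stood above 3 small cells here. Mean adjusted counts were 2033 in large and 833 in small cells, a log2 ratio of 1.29, which was 2.43 without A2 and 0.81 without C1. Summed counts were 14079 (13847 to 14314, exact 95% Poisson interval) in the 4 large cells and 5930 (5780 to 6083) in the 5 small cells. The 24 h bulk had 1710 CPM, above all 9 cells.

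Hspe1, the Hsp10 lid of the same chaperonin, lies on chromosome 1 from 55088132 to 55091307 and varied least between cells among the 9 detected members. It had 235 CPM in A2, 66.9 in C12, 236 in C7, 276 in F7 and 204 in H1. It had 334 CPM in C1, 285 in E1 and 94.3 in E3, with 178 in G2. The coefficient of variation over the 9 cells was 41.3%, against 50.3% for Hsp90ab1, 87.5% for Hspd1 and 159% for Hsph1. The log2 ratio was 0.28, and it was -0.31 without C1.

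Although Hspd1 and Hspe1 start from the same stretch of chromosome 1 and their proteins work together, their counts did not keep 1 ratio. Hspd1 made up 69.0% of the counts of both genes in A2, 68.1% in C12, 0% in C7, 56.3% in F7 and 13.6% in H1. It made up 73.1% in C1, 77.4% in E1 and 84.3% in E3, with 54.7% in G2. C7 had 783 counts of Hspe1 and none of Hspd1, which allows Hspd1 up to 0.47% of both (exact 95% binomial interval). H1 had 1121 and 177. The 24 h bulk gave 83.1%, close to E3. The genes overlap by 112 exon bases on opposite strands, and 42.1% of the windows of 50 bases in Hspd1 and 22.8% of those in Hspe1 also occur in other genes. Both strands were searched for these windows, so the overlap itself can add to the shares. The leading copy of Hspd1, Hspd1-ps3, had 0 to 44 counts per cell.

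The members' adjusted counts followed each other across the 9 cells. Spearman rho was above 0 for 36 of 36 pairs, with a median of 0.76 and a range of 0.43 to 0.98. It was highest for Hsp90aa1 with Hspa8 (0.98), Hsp90aa1 with Hsp90ab1 (0.97) and Hsp90ab1 with Hspa8 (0.93), and lowest for Hspa9 with Dnaja1 (0.43). Cells share a spike-in factor across all genes, so other genes follow each other too: the median over pairs of the 175 genes on in all 9 cells was 0.52. In CPM, which takes each library's total out, the median was 0.52 for the members, 0.15 for those 175 genes and 0.05 for the 1352 genes on in at least 5 cells. Hsp90aa1 with Hspa8 stayed at 0.95 in CPM, whereas Hspa4 with Hsph1 stood at 0.02. These values are descriptions over 9 points that share library depth and factor.

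**Figure D5:**
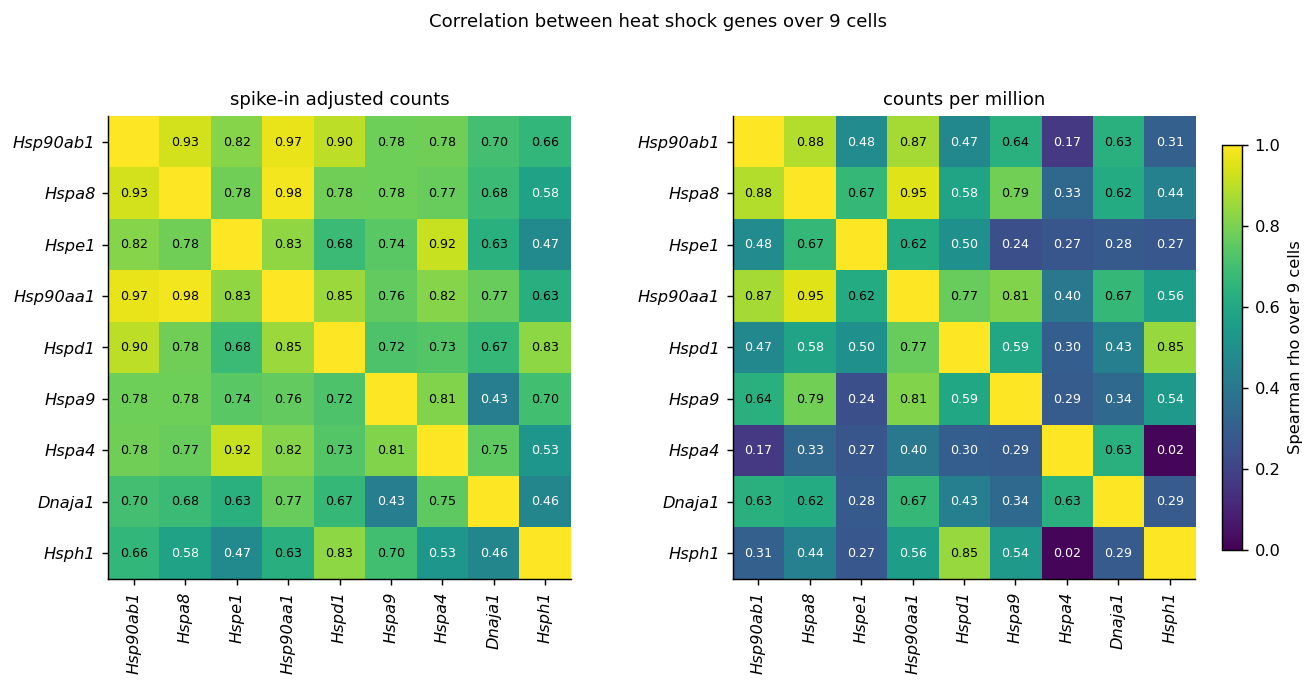
Each square gives Spearman rho between 2 heat shock genes over 9 cells, on a color scale from 0 to 1, from spike-in adjusted counts at the left and CPM at the right. The adjusted counts give 0.43 to 0.98, and CPM gives 0.02 to 0.95, with Hsp90aa1, Hspa8 and Hsp90ab1 at 0.87 or more with each other on both scales.

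G2 held the fewest member counts of the 9 cells used, and other gene groups of this cell were both high and low. Its B cell markers summed to 34505 CPM, the highest of the 9 cells, with C7 next at 34346. These markers went both ways in G2. It had the most counts of Cd79b (48947) and H2-Aa (40616) of the 9 cells, but 302 of Ms4a1, the fewest, and 0 of Cd22 and Ebf1. Its subunits of the cytosolic CCT chaperonin and of the partner prefoldin summed to 4608 CPM, above 3 small cells. Its mitochondrial chaperones and import partners summed to 88.9 CPM, where the other cells had 415 to 1591, and its genes of endoplasmic reticulum folding to 3451, where the others had 6891 to 14449. Its immediate early genes, which respond within minutes to handling or signals, summed to 3884 CPM against 18.1 to 1062 in the others. The spike-in factor of G2 was 0.0998, the lowest of the 9. The part of these differences in the members' values was not tested.

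Other folding genes were compared in the same way. Of all detected genes, 5.83% were called higher and 1.88% lower. The lists are short beside these shares, so no difference between lists is read from their counts of called genes. Of 13 detected genes of CCT and prefoldin, 2 were called higher, Cct7 (score 0.60, log2 ratio 1.74) and Pfdn1 (0.55, 0.36), and none lower, with a median log2 ratio of 0.35. Among 13 detected Hsp90 cochaperones none was called, and the median was 0.50. Sugt1, which links Hsp90 to ubiquitin ligases, had a score of 0.40 and Ahsa1, which speeds the Hsp90 ATPase, had a log2 ratio of 1.69. Of 5 detected exchange factors and regulators of Hsp70, Bag2 was called higher (score 0.50, on in 2 large cells and no small one), and the median was -0.47. None was called among 14 other J-domain genes (median 0.27), 11 mitochondrial chaperones and import partners (0.48), 4 heat shock factor genes (-0.24) or 16 genes of endoplasmic reticulum folding (-0.09). P4hb and Dnajc3, which form disulfide bonds and assist the Hsp70 of the endoplasmic reticulum, had ratios of -1.86 and -1.63 with scores of -0.35 each. Of 8 other Hsp70 and Hsp110 family genes 7 were found by symbol, and Hspa14 was not, so nothing is known of it here. Of those found only Hspa13 was detected, with a ratio of -1.78 and a score of 0.05. None of 8 small heat shock protein genes was on in any of the 9 cells. Of 9 detected immediate early genes, Btg2, which restrains proliferation, was called lower (score -0.55), with a median of -0.59 over the list.

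Set beside the cells, the 24 h bulk library held the same 9 members and lacked the same 1. Its CPM exceeded the mean of the 9 cells 4.88-fold for Hsph1, 4.2-fold for Hspd1, 2.43-fold for Hspa8 and 2.34-fold for Hspa9. It was nearer to that mean for Hspe1 (1.64-fold), Hsp90ab1 (1.44-fold) and Hsp90aa1 (1.09-fold), and lower for Hspa4 (0.125 times) and Dnaja1 (0.017 times). Hspa8, Hspd1, Hspe1 and Hsph1 were above all 9 cells in it. In bulk material fewer cells that express a gene and less RNA per cell cannot be told apart, and the cells sequenced were the extremes of size rather than a sample of the culture. The bulk material was also diluted. Its gene counts times the spike-in factor came to 104773, below G2 at 557519, the lowest of the 9 cells. In it 54 genes were on, where the 9 cells had 656 to 3819. Transcripts lost at such low input cannot be told apart from low levels either, and their part was not tested.

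Against the 0 h bulk, 8 members had at least 50 counts over both libraries, of which 7 were higher at 24 h by a log2 ratio of at least 1 and none lower by as much. Of the 5157 genes tested, 54.2% were higher and 35.2% lower. The 8th, Hspa4, had a ratio of -0.47. The 7 ratios ran from 3.31 for Hsph1 to 9.05 for Hspa8. With 1 library a time point there is no replicate check. Since the members had 1 to 40 counts at 0 h, or a median of 4.27 per kilobase where all genes had 5.41, no change of these genes with stimulation was read from these ratios.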

How the data were processed

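Counts of 13 libraries were analysed. Reads had been mapped by the authors to mouse build m37 with STAR, per the processing notes and methods. They deposited raw, whole-number counts for each Ensembl gene and, per library, a ratio derived from ERCC spike-ins, the factor used here. The STAR version, the counting tool and the strand setting were not given in the sources used here. Deposited tables of scores, enrichments, correlations and cell sizes hold the authors' own comparisons or were not needed. They were not used, nor were 26 further columns of per-sample values.

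Counts were adjusted as count times factor plus 100, and CPM is counts per 1000000 gene counts. Detected means on, above 300, in at least 1 of 9 cells. The bulk ratio had 0.5 counts added. Symbols, exon lengths and windows of 50 bases came from GENCODE M21 (GRCm38), so no coordinates were mixed with the authors' build. Of 37991 identifiers, 32919 had a symbol. The members and the 17 other gene lists were chosen with earlier results of these data known. All 10 members are named and, of each other list, up to 4 genes with the largest score and then log2 ratio. Cell type markers could also be named, by their counts. No doublet caller was run on 10 imaged cells. Alternatives were other scaling, constants, thresholds, C3 kept and each cell left out. Scripts were tested on simulated data. The software was Python 3.11.15 with pandas 2.3.3, numpy 2.4.6, matplotlib 3.10.9 and scipy 1.17.1.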

Additional observations from a re-analysis of the deposited data

Results flagged for a closer look

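In 20 groups of 4 or 5 cells, 2 held a cell whose gap to its nearest neighbour was large for the range of the group. The limit was that of Dixon's outlier rule, which assumes normally distributed values. Adjusted counts cannot fall below 100, and the groups reuse the same 9 cells. The rate expected by chance is therefore not known, and the flags only point to cells that stand apart. For Hsph1 in small cells, A2 had an adjusted count of 580.6, while the next highest was 112.6 in F7. For the members' share of gene counts in small cells, F7 stood at 1.92% and the next highest, H1, at 0.921%. Without F7 the median share of the small cells was 0.729% in place of 0.751%.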

How the results depend on the processing

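No paired analysis was possible because the replicate numbers only name cells, no label ties a small cell to a large one, and no result comes from a test. After scaling to total counts the median log2 ratio of the members was 0.40 and 4 members were on in all 9 cells (Hsp90aa1 and Hspe1 beside Hsp90ab1 and Hspa8). Over all detected genes the median was -0.07 under this scaling, and 4.95% were on in all 9 cells in place of 2.72%. With C3 kept the median of the members was 0.39 and 1 member was on in every cell. Over all detected genes the median was -0.09 with C3 kept, 1.66% were on in every cell and 0.81% were called higher. The share of called genes that were higher, over all genes, was then 34.0% in place of 75.6%. A constant of 10 gave a median of 0.71, and medians over cells in place of means gave 1.83. At a threshold of 600, 2 members were called higher and 0 were on in all cells. With each cell left out, the members called higher ranged from 0 (without C1, E1 or E3) to 2 (without A2, F7 or G2), the median ratio from 0.31 (without E1) to 1.32 (without F7), the median correlation from 0.68 to 0.81, and the share difference from 0.479 to 0.708 percentage points. No member was called lower in any of these settings, and 2 were on in every cell each time. For the other constant, the other thresholds and the cells left out, no share over all genes was computed, so nothing is read from these counts of members. The median ratio was also 0.43 without C7, 0.45 without C12, 0.41 without C1 and 1.10 without G2. The median correlation was 0.78 as Pearson r of log2 adjusted counts, 0.52 in CPM and 0.82 with C3. The share difference, whose alternatives were chosen after seeing the data, was 0.625 without mitochondrially encoded counts and 0.479 with C3. With no minimum, 2 members (Hspa1b and Dnaja1) were lower at 24 h in bulk; the other bulk settings gave the same 7 and 0. Each size group is 1 sample, so these ranges describe the cells and not the conditions.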
